A study of Rattus norvegicus with 63 samples.

Results

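Livers of 3 male rats given phenobarbital sodium (PB) by gastric gavage for 14 days were compared with livers of 3 rats given methylcellulose (MC, control set 6 in the sample labels) by the same route for the same time. These 6 arrays were taken by their labels from a series of 63 miRNA arrays, 1 per rat, that covers 15 compounds and 6 vehicle control sets of 3 rats each. All rats were Wistar Hanover animals, dosed from an age of 8 to 10 weeks, and the labels state no dose for PB. The series was made to find expression patterns that tell classes of liver carcinogens apart, with PB among the non-genotoxic ones. The array carries 350 rat miRNAs, of which 162 were detected by the scanner software on at least 1 of the 63 arrays and were tested. The other 188 were detected on none.

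PB is a barbiturate that acts in hepatocytes through the constitutive androstane receptor (CAR), induces cytochromes of the Cyp2b group, enlarges the liver and promotes liver tumours in rodents without damaging DNA. A miRNA is a short RNA that lowers the output of mRNAs which pair with its seed, bases 2 to 8 of the mature strand. The miR-200 family is known from epithelial cells, bile duct epithelium included, where it represses the transcription factors Zeb1 and Zeb2, and miR-122 is the leading miRNA of hepatocytes.

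Of the 4 miRNAs that were higher in PB 3 come from 1 gene cluster, that of rno-miR-200b-3p, rno-miR-200a-3p and rno-miR-429. Positions and sequences are from RefSeq, genome build GRCr8. Mir200b lies on chromosome 5 at chr5:171931495-171931589, Mir200a at chr5:171930717-171930805 and Mir429 at chr5:171929682-171929766, all on the minus strand. The whole cluster spans 1908 bases, with 689 bases between Mir200b and Mir200a and 950 between Mir200a and Mir429. The other family members, miR-200c and miR-141, have their hairpins on chromosome 4 with 346 bases between them. Array names give no arm of the hairpin, and the 3p arm was taken for the older names miR-200c and miR-141. Mature sequences of the 3 cluster members were missing from the source used here. Those of miR-200c and miR-141, relatives of the cluster that were not called, are shown with the seed in capitals.
rno-miR-200c-3p: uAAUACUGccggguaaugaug
rno-miR-141-3p: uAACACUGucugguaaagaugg

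The fourth miRNA that was higher in PB, miR-96, comes from another cluster, on chromosome 4, with miR-183 and miR-182. Its seed and those of its neighbours are in capitals, with the 5p arm taken for the older names miR-96 and miR-183.
rno-miR-96-5p: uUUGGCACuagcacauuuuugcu
rno-miR-183-5p: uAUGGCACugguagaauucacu
rno-miR-182: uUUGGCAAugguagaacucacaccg

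The seeds of these 3 neighbours are all different. The Mir96 and Mir183 hairpins lie 97 bases apart on the minus strand, and Mir182 and Mir96 lie 3533 bases apart.

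The 6 arrays did not share a slide or a day. PB rats 1 and 2 lay on slide 1, PB rat 3 on slide 9 and all 3 controls on slide 2, and slides 1 and 2 were scanned on day 1 while slide 9 was scanned on day 3. The scanner software rated PB rat 3 as in range and marked the other 5 arrays for evaluation. The median spot brightness was 205 and 207.5 units in PB rats 2 and 1, 77 in PB rat 3 and 203 to 213 in the controls. Between 89 and 115 miRNAs were detected in PB rats and between 94 and 102 in controls. For miRNAs detected on every array, the upper quartile of background-subtracted probe signal was 380 to 433 units in PB and 424 to 578 in controls. No PB rat shared a slide with a control, and PB rat 3 differed from the controls in scan day as well. From these 6 arrays alone slide and treatment therefore cannot be told apart for any PB rat, so values within slides are given further on. The labels call the tissue liver, and miR-122 was the brightest of its marker list on every array, at 14.6165 to 14.6679 in PB and 14.6659 to 14.6838 in controls on the log2 scale.

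Of 162 miRNAs tested, 4 were higher in PB than in the controls and 1 was lower, at an adjusted p under 0.05 in limma. Here and below, rose, raised and fell mean only higher or lower than the controls named, with no cause implied. The 4 that rose were miR-200b, miR-200a, miR-429 and miR-96, a share of 2.47% of all miRNAs tested, and the 1 that fell was miR-333_v11.0, a share of 0.617%. The rises were small on this scale, from 0.15 to 0.48 log2 units. The levels are log2 values after RMA without background correction, in which the dimmest tested miRNAs lie near 7.34 and the brightest at 14.7, so differences of dim miRNAs are compressed. At an unadjusted p under 0.05 there were 16 miRNAs. The median difference over the 162 was -0.0042 log2 units, with 73 above 0 and 89 below. In whole tissue, fewer cells of a type and less RNA per cell cannot be told apart.

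**Figure D1:**
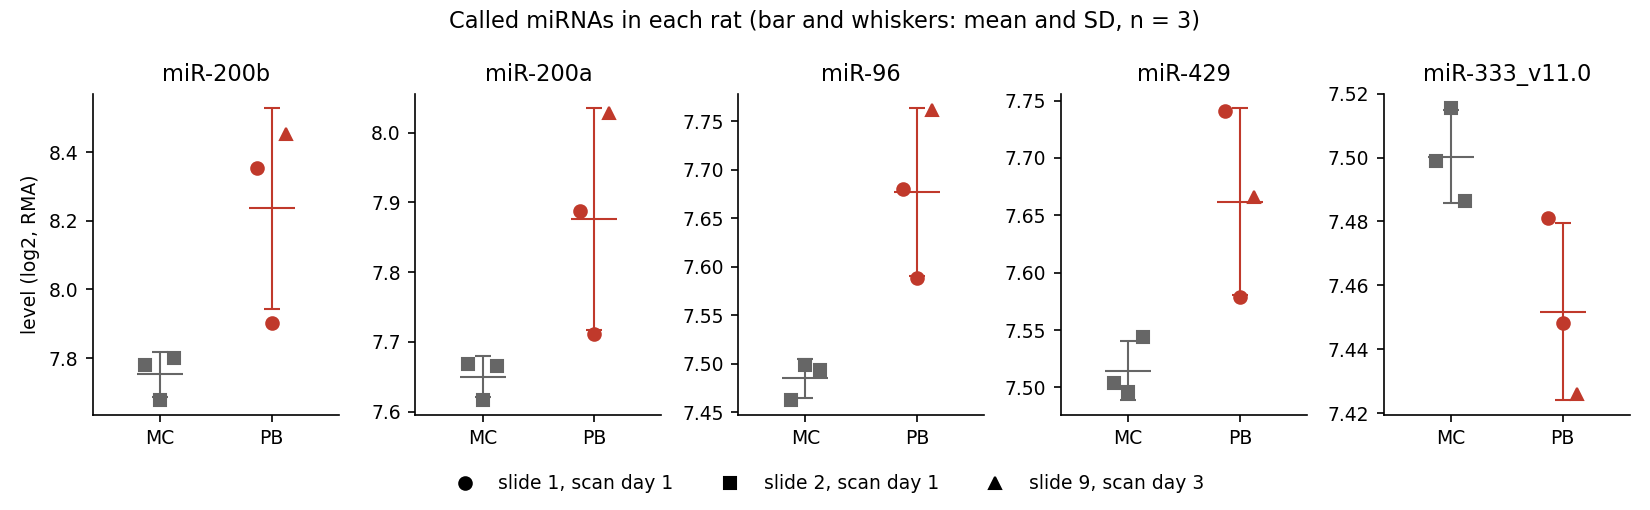
Level of each called miRNA (log2, RMA without background correction) in the 3 MC control rats and the 3 PB rats, 1 panel per miRNA with its own axis that does not start at 0. Points are rats, the marker gives the slide, and the bar and whiskers are the mean and SD (n = 3). In the 4 panels of miR-200b, miR-200a, miR-96 and miR-429 all PB rats lie above all controls, and PB rat 2 is the lowest of the PB rats.

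miR-200b stood at 8.35, 7.90 and 8.45 log2 units in PB rats 1, 2 and 3 and at 7.78, 7.68 and 7.80 in control rats 1, 2 and 3. All PB rats were above all controls, and PB rat 2 was much closer to the controls than the others, 0.15 log2 units above the control mean against 0.60 and 0.70. The mean was 8.24 ± 0.29 (SD, n = 3) in PB and 7.75 ± 0.066 in controls. The log2 fold change was 0.48 (SE 0.094, limma adjusted p = 0.000887), or 1.40-fold with a 95% interval from 1.23 to 1.59. This SE and interval use a spread pooled over all 63 arrays, not that of the PB rats alone. Both of its 2 probes showed all PB rats above all controls, with differences of 0.31 and 0.66. Of the 63 arrays 62 showed it well above background, the most of the 4.

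miR-200a stood at 7.89, 7.71 and 8.03 in PB rats 1, 2 and 3 and at 7.67, 7.62 and 7.67 in controls. Again the groups did not overlap and PB rat 2 was the lowest of its group. The log2 fold change was 0.23 (SE 0.050, limma adjusted p = 0.00294), which is 1.17-fold. The 2 probes disagreed in size, with 0.352 for one and 0.0997 for the other, and at the dimmer one the groups overlapped.

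miR-429, the third member of the chromosome 5 cluster, stood at 7.74, 7.58 and 7.67 in PB rats and at 7.50, 7.50 and 7.54 in controls. The groups did not overlap at either probe, with differences of 0.13 and 0.16. The log2 fold change was 0.15 (SE 0.030, limma adjusted p = 0.000887). It was detected in 2 of 3 PB rats and in 0 of 3 controls, and no control had it well above background. The ratio of the means was therefore bounded, at 1.08-fold or more, with no allowance for the spread between rats. This bound sets the mean of PB against the lowest signal well above background on each control array, or the miRNA's own signal where that is higher.

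The miR-200 family members from chromosome 4 did not rise. miR-200c stood at 7.49, 7.49 and 7.49 in PB rats and at 7.46, 7.47 and 7.67 in controls, with a difference of -0.043 (limma adjusted p = 0.760). miR-141 stood at 7.44, 7.44 and 7.45 in PB rats and at 7.46, 7.47 and 7.58 in controls, with a difference of -0.058 (limma adjusted p = 0.429). Control rat 3 had the highest value of the 6 rats for both. Neither was detected in a PB rat, and each was detected in 1 control, so their levels in PB were not measurable at this signal. Of the 5 family members on the array 3 were called higher and 0 lower. Over all miRNAs tested 2.47% were called higher and 0.617% lower. The median difference over the 5, that of miR-429, was 0.15 against -0.0042 over all miRNAs tested. This list was chosen with earlier results of these data known. All 3 members from chromosome 5 rose, and neither from chromosome 4 was called.

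miR-96, known with its neighbours miR-183 and miR-182 from sensory organs such as the inner ear and retina, stood at 7.68, 7.59 and 7.76 in PB rats and at 7.46, 7.50 and 7.49 in controls. The groups did not overlap at either probe. The log2 fold change was 0.19 (SE 0.048, limma adjusted p = 0.00929). It was detected in 2 of 3 PB rats and 0 of 3 controls, with 1 PB rat and no control well above background. By the bound used for miR-429 the ratio of the means was 1.11-fold or more, again with no allowance for the spread between rats. miR-182 and miR-183 were detected on none of the 63 arrays and were not tested.

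The single miRNA that was called lower, miR-333_v11.0, stood at 7.48, 7.45 and 7.43 in PB rats and at 7.50, 7.52 and 7.49 in controls. The groups did not overlap, but the gap between them was smaller than the spread within either. The log2 fold change was -0.049 (SE 0.012, limma adjusted p = 0.00930), and 1 of its 4 probes separated the groups while another had the opposite sign, at 0.013. Only 1 PB rat and 1 control had it well above background. Control set 6 was itself high for this miRNA: it exceeded MC sets 1, 2 and 5 by 0.040, 0.052 and 0.039 (limma adjusted p = 0.0168, 0.00801 and 0.0385), comparisons in which 9.26%, 3.09% and 6.17% of all miRNAs were called higher in set 6. Against all methylcellulose rats the PB difference was -0.016 (limma adjusted p = 0.373). Which rats the arrays of MC sets 1, 2 and 5 hold is uncertain, for a reason given with the other compounds. None of the 4 miRNAs that rose was called different between control set 6 and MC sets 1, 2 and 5 at an adjusted p under 0.05, with differences from -0.0998 to 0.0338. For miR-96 control set 6 was the lower one against each of MC sets 1, 2 and 5, at -0.063, -0.0998 and -0.053. Against all methylcellulose rats the PB difference of miR-96 was 0.14 (limma adjusted p = 0.0140).

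The same rises were larger on scales that subtract background. In the processed signal of the scanner software, with no scaling between arrays, miR-200b read 121, 55.7 and 144 units in PB rats 1, 2 and 3 and 34.9, 35.5 and 57.3 in controls. Here PB rat 2 lay inside the range of the controls. miR-200a read 47.5, 29.5 and 74.0 units in PB rats and 24.1, 26.4 and 34.9 in controls, again with PB rat 2 inside the range of the controls. miR-429 read 29.8, 14.2 and 27.2 units in PB and 9.75, 10.4 and 15.7 in controls, and for miR-96 the values were 21.9, 15.9 and 36.6 in PB against 5.92, 10.7 and 8.93. Only for miR-96 were all PB rats above all controls in these units. The ratio of the means was 2.51 for miR-200b, 1.77 for miR-200a, 1.99 for miR-429 and 2.91 for miR-96.

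In the normalized log2 value table deposited by the authors, which holds 135 of the miRNAs, the differences were 1.81 for miR-200b, 1.07 for miR-200a, 1.11 for miR-429 and 1.50 for miR-96. These are 3.50-fold and 2.10-fold for the first 2, with limma adjusted p-values of 0.000652 and 0.00292. The same 5 miRNAs were called there, 4 higher, or 2.96% of those tested, and 1 lower, or 0.741%. In the table miR-200b stood at 7.15, 5.75 and 7.28 log2 units in PB rats and at 5.01, 4.55 and 5.20 in controls, and PB rat 2 was again the lowest of its group.

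**Figure D2:**
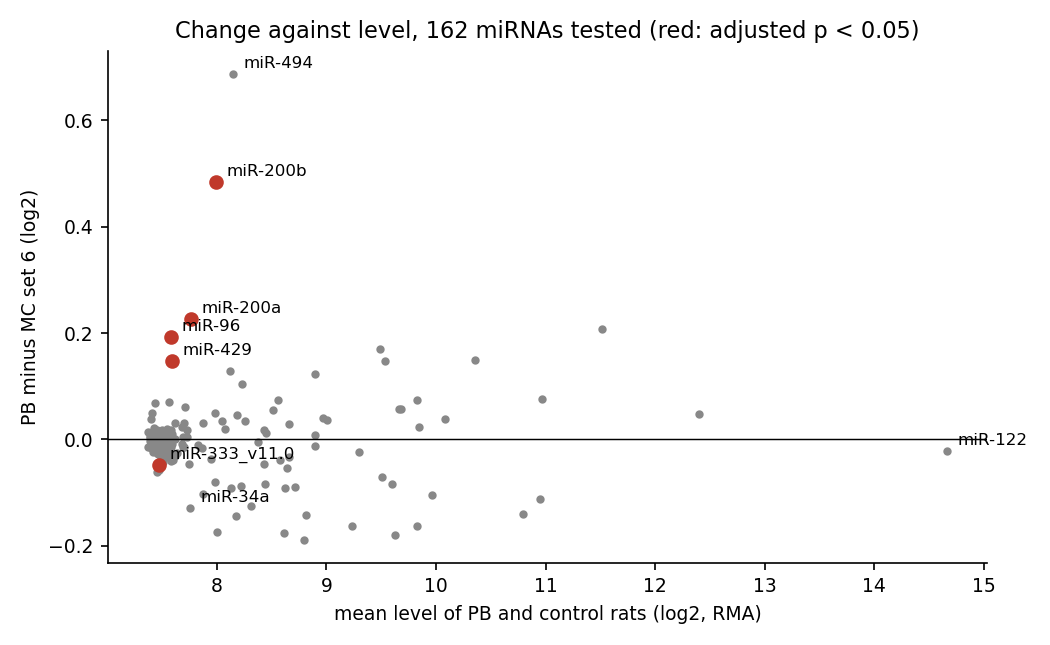
Difference between PB and MC control set 6 (log2) against the mean level of the 6 rats (log2, RMA without background correction) for the 162 miRNAs tested. Each point is 1 miRNA, and red points passed an adjusted p of 0.05 in limma. The 5 called miRNAs lie at the dim end, below 8 log2 units, and miR-494 has the largest difference, 0.69, without passing the test.

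Within slides the values were mixed. On slide 1, PB rats 1 and 2 shared the glass with 3 corn oil control rats (set 4) and 3 rats given cyproterone acetate (CPA), and against the corn oil rats alone the log2 difference was 0.45 for miR-200b, 0.20 for miR-200a and 0.17 for miR-429 (limma adjusted p = 0.00399, 0.0117 and 0.00142). For miR-96 it was 0.13 (limma adjusted p = 0.230). The corn oil rats had another vehicle, and this comparison was chosen after the data were seen. PB rat 2 lay below 2 of the 3 CPA rats of the slide for all 3 cluster members, with 7.90 against 7.97 and 8.03 for miR-200b, 7.71 against 7.77 and 7.81 for miR-200a and 7.58 against 7.59 and 7.61 for miR-429. On slide 9, PB rat 3 was the highest of 5 arrays in all 4 miRNAs, with 8.45 for miR-200b against 7.69 to 8.11 on the others. On slide 1 the difference of miR-96 between the PB rats and all 6 other rats was -0.051, since the 3 CPA rats there were at 7.78 to 7.93. With slide as a fixed block, miR-200b was 0.88 and miR-200a 0.44 higher in PB (limma adjusted p = 0.00753 for both), while miR-429 and miR-96, at 0.22 and 0.29, were no longer called (limma adjusted p = 0.0774 and 0.178). That fit rests on PB rat 3, the controls and the gap between CIDB rat 1, on the controls' slide, and CIDB rat 2, on slide 9. For miR-200b these CIDB rats stood at 8.29 and 8.11. PB rats 1 and 2 do not enter that estimate, since the other groups of slide 1 lie on slide 1 alone.

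**Figure D3:**
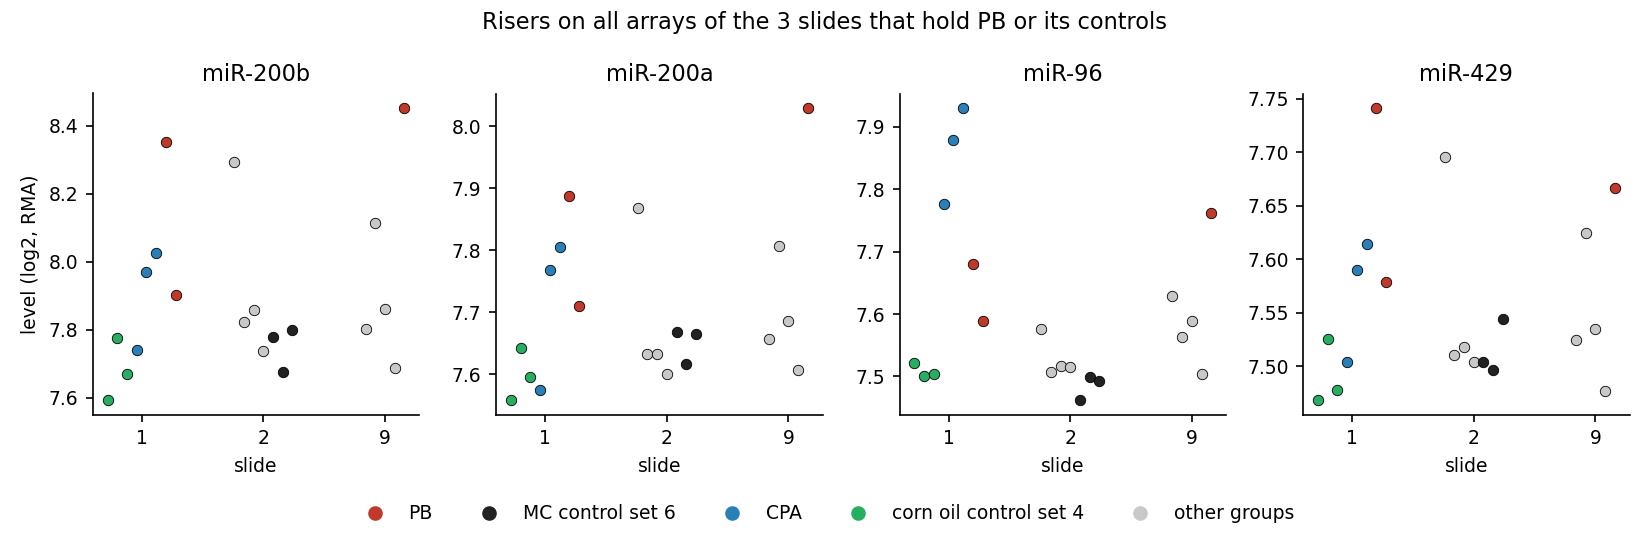
Levels (log2, RMA without background correction) of the 4 miRNAs that rose, on all arrays of slides 1, 2 and 9, which hold the PB rats and their controls. Each point is 1 rat, coloured by group, and each panel has its own axis that does not start at 0. PB rat 3 is the highest on slide 9 in each panel, and on slide 1 PB rat 1 is the highest for miR-200b, miR-200a and miR-429 while CPA rats are the highest for miR-96.

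The calls above used a spread estimated over all 63 arrays. Fitted on the 6 arrays alone, limma called 0 of 162 miRNAs with 17 at an unadjusted p under 0.05, and the adjusted p of miR-200b was 0.317. Without PB rat 3, 3 of the 5 calls were lost, those of miR-200a, miR-96 and miR-333_v11.0 (limma adjusted p = 0.141, 0.146 and 0.199), and miR-29a and miR-494 were called instead, at 0.30 and 1.06 (limma adjusted p = 0.0228 and 0.00719). The call of miR-96 was also lost without control rat 1 (limma adjusted p = 0.0548) and that of miR-333_v11.0 without control rat 2 (limma adjusted p = 0.124). Without PB rat 2 the calls rose from 5 to 8.

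Over the 18 vehicle rats of the series, miR-200b ranged from 7.59 to 8.00 with a median of 7.78. The lowest PB rat, at 7.90, was above 17 of them. For miR-429 the lowest PB rat was above 17 of 18 vehicle rats, for miR-200a above 16 and for miR-96 above 15. The 42 rats given other compounds reached 8.69 for miR-200b, above the highest PB rat.

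Several of the other 14 compounds moved the same cluster. With piperonylbutoxide (PBO), another inducer of liver enzymes, given at 1200 mg per kg and day for 3 days, the log2 fold changes against MC set 5 were 0.69 for miR-200b, 0.31 for miR-200a, 0.19 for miR-429 and 0.19 for miR-96, all called by limma, in a comparison with 4.94% of miRNAs called higher. C.I. Direct Black (CIDB), given at 146 mg per kg and day for 7 days, raised miR-200b by 0.31, miR-200a by 0.15 and miR-429 by 0.12, where 13% of miRNAs were called higher. CPA, given at 100 mg per kg and day for 14 days, was called for miR-96 alone, with 0.35, where 3.7% were called higher. Diethylstilbestrol (DES), given at 10 mg per kg and day for 3 days, was called for miR-96, with 0.18, and miR-429, with 0.075, where 21% were called higher. PB had the second highest change among the 15 compounds for each of the 4 miRNAs. None of the 14 lowered any of the 4 at an adjusted p under 0.05. Doses and times differ between these compounds. Of the columns of the value table, 15, those named for DES, DHEA and MC sets 1, 2 and 5, follow arrays filed under other labels, so which rats those arrays hold is uncertain. This bears on every compound compared with MC set 1, 2 or 5, PBO and DES among them. It also bears on the comparisons of control set 6 with those sets and on the fit against all methylcellulose rats. The ranges over vehicle rats and over rats given other compounds include these arrays, as does the spread pooled over all 63 arrays. The columns of PB, control set 6, CPA, CIDB and corn oil set 4 follow their own arrays.

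**Figure D4:**
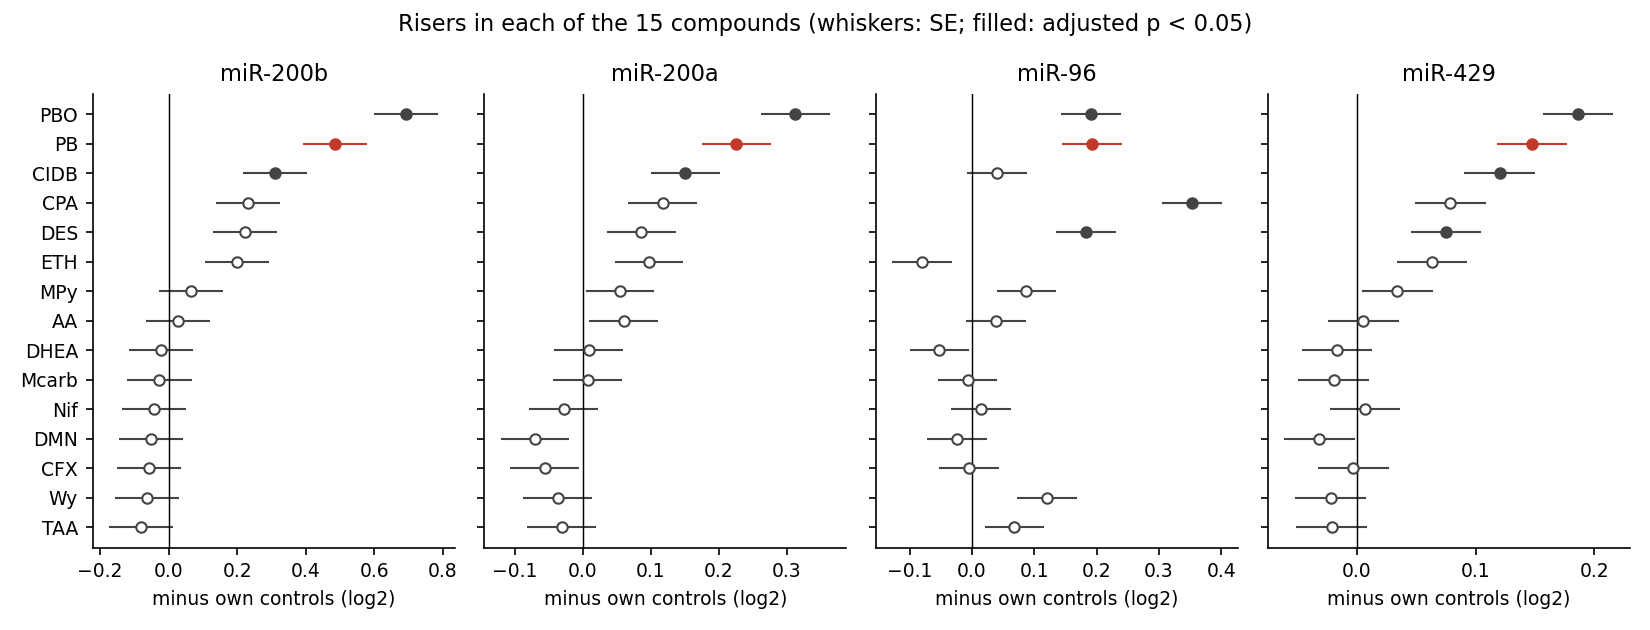
Log2 fold change of the 4 miRNAs that rose in PB, for each of the 15 compounds against its own vehicle control set (RMA without background correction). Whiskers are the SE of the fit, filled points passed an adjusted p of 0.05 in limma, and PB is in red. PBO and PB are the 2 highest compounds for miR-200b, miR-200a and miR-429, and CPA is the highest for miR-96.

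The difference between the PB change and the PBO change was tested directly for all miRNAs. No miRNA was called (0% of 162), with 17 at an unadjusted p under 0.05. For miR-200b the PB change was 0.21 smaller than the PBO change, with a 95% interval from -0.47 to 0.059, and for miR-96 the difference was 0.0011, from -0.14 to 0.14. The smallest adjusted p, 0.103, was shared by miR-23b, miR-29b, miR-192 and miR-107. miR-29b, a repressor of collagen mRNAs, rose by 0.78 in PBO and stood 0.17 above controls in PB (limma adjusted p = 0.651), a difference of -0.61 with an interval from -0.99 to -0.23.

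Between the PB change and the CPA change 1 miRNA was called, miR-212, or 0.617% of those tested. miR-212, which is transcribed with miR-132 and responds to CREB, rose by 0.12 in CPA (limma adjusted p = 0.00188) and was near its controls in PB (difference -0.025, limma adjusted p = 0.697), a difference of -0.14 (SE 0.035, limma adjusted p = 0.0422). For miR-200b the PB change exceeded the CPA change by 0.25, with an interval from -0.015 to 0.52, and for miR-96 it was smaller by 0.16, a difference of -0.16 from -0.30 to -0.024 (limma adjusted p = 0.364). CPA and its controls lay on slide 1 with PB rats 1 and 2.

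The largest difference of all belonged to miR-494, a member of the imprinted Dlk1-Dio3 cluster, and it rested on 1 rat. It stood at 9.95 in PB rat 1, at 7.79 and 7.74 in PB rats 2 and 3 and at 7.82, 7.81 and 7.78 in controls. The value of PB rat 1 was the highest of all 63 arrays, and the next one was 8.46 in a CPA rat on the same slide. The difference was 0.69 (SE 0.24, limma adjusted p = 0.153), and without PB rat 1 it was -0.040. In the processed signal PB rat 1 read 596 units and the other 5 rats 36.3 to 56.5. Of the 37 members of the Dlk1-Dio3 list on the array 34 were detected on no array. The other 2 tested, miR-409-3p and miR-487b, stood at 7.39 and 7.38 in PB rat 1, against 7.40 to 7.42 and 7.37 to 7.39 in controls, and so did not share its high value.

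Hepatocyte miRNAs showed no call, where 2.47% of all miRNAs tested were called higher and 0.617% lower. With so few calls in all, a short list without one says little about its members. miR-122 stood at 14.67, 14.62 and 14.67 in PB rats and at 14.67, 14.68 and 14.67 in controls, with a difference of -0.022 (interval -0.087 to 0.043). The difference was larger on other scales, at -0.34 in the value table (limma adjusted p = 0.0673) and at -0.17 with the processed signal scaled by the 75th percentile of detected or of all probes (limma adjusted p = 0.636 and 1.00). Unscaled, the processed signal was 21834, 27013 and 19565 units in PB rats and 26017, 34668 and 35052 in controls, a ratio of 0.715 with groups that overlapped. With slide as a fixed block miR-122 was called higher, by 0.24 (limma adjusted p = 0.000318). That estimate rests on PB rat 3, which was level with the controls, and on CIDB rats 1 and 2, at 14.49 and 14.25. It is therefore not a rise seen in the PB rats themselves. miR-192 and miR-194, which are made from shared transcripts, were 0.075 and 0.036 higher, and miR-215 was detected on no array. Of the 3 tested, 0 were called, with a median difference of 0.036. miR-122 is at the bright end of the scale, where quantile normalization sets arrays to nearly equal values.

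miR-34a, a target of p53 that several other compounds of the series raised, stood at 7.69, 7.71 and 7.68 in PB rats and at 7.86, 7.78 and 7.83 in controls. All PB rats were below all controls, and the difference of -0.13 did not pass the test (limma adjusted p = 0.697). It was -0.71 in the value table (limma adjusted p = 0.224) and -0.33 and -0.40 with scaling by the 75th percentile of detected and of all probes (limma adjusted p = 0.857 and 1.00). The unscaled processed signal read 24.9, 28.8 and 27.9 units in PB rats and 44.7, 48.4 and 61.5 in controls, a ratio of 0.528, again with no overlap.

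Groups that did not overlap were more common than calls. All PB rats lay above all controls for 10 miRNAs, or 6.17% of those tested, and below all controls for 15, or 9.26%. Among the 10 were the 4 that rose, and miR-378 and miR-30e were next, at 0.13 and 0.10 (limma adjusted p = 0.429 and 0.196). Among the 15 below, the largest differences were those of miR-19b, miR-199a-3p and miR-99a, at -0.18, -0.17 and -0.16 (limma adjusted p = 0.429, 0.153 and 0.429). miR-26b, at -0.16, had the smallest adjusted p of the miRNAs that were not called, 0.0753, and stood at 9.64, 9.82 and 9.78 in PB rats and at 9.89, 9.89 and 9.94 in controls.

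Other miRNA families contained no call, against a share of 2.47% called higher and 0.617% called lower over all miRNAs tested. The miR-15 and miR-16 family had 5 of 5 tested members below 0, with a median of -0.10 and a lowest adjusted p of 0.153, and miR-195 was the furthest at -0.19. Of 8 let-7 members 7 were below 0, with a median of -0.064, and of 9 members of the miR-17 and miR-106b clusters 6 were, with a median of -0.038. All 3 miR-29 members were above 0, between 0.15 and 0.17, and all 5 miR-30 members were, with a median of 0.054 and miR-30e the highest at 0.10. None of these passed the test, and the median over all 162 miRNAs was -0.0042.

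Markers of other liver cell types were also without a call. Over all miRNAs tested 2.47% were called higher and 0.617% lower, so lists this short say little by having none. In the leukocyte list 0 of 5 tested miRNAs were called, with a median difference of -0.011, and the summed linear level was 1169 to 1335 in PB and 1189 to 1281 in controls. miR-223, a myeloid miRNA, differed by -0.011. In the endothelial list both miR-126 and miR-126* were below 0, at -0.072 and -0.038, and the sum was 887 to 921 in PB against 868 to 993 in controls. In the list of stellate and smooth muscle miRNAs 4 of 5 were tested, all below 0 with a median of -0.037, while miR-145 was detected on no array. The sums did not overlap, 985 to 1035 in PB and 1060 to 1072 in controls, though only 1 of the 4 did not overlap by itself. Sums were likewise lower in PB without overlap in the miR-15 and miR-16, miR-17 and miR-106b, miR-99, miR-34 and neural and pancreatic lists. In the neural and pancreatic list and in the miR-96 list only 1 miRNA was tested, so each of these sums is that miRNA alone. The sum of the miR-96 list, higher in PB without overlap, is thus the called miR-96 itself. In the miR-200 family the sums overlapped, at 993 to 1169 in PB and 935 to 1008 in controls. The part of the stellate and smooth muscle difference in the results above was not tested. The erythroid pair miR-144 and miR-451 differed by -0.088 and 0.023. Of the muscle list 0 of 4 were detected on any array, and of the neural and pancreatic list 1 of 5. miR-200 family members are themselves epithelial markers, and no other marker of bile duct epithelium was measured, so a change in the share of those cells was not tested.

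The remaining lists, which cover miR-21, the miR-103, miR-193, miR-23, miR-99, miR-26, miR-181, miR-221 and miR-139 groups, likewise held 0 calls. The share over all miRNAs tested was 2.47% called higher and 0.617% called lower. miR-21 was 0.048 higher.

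**Figure D5:**
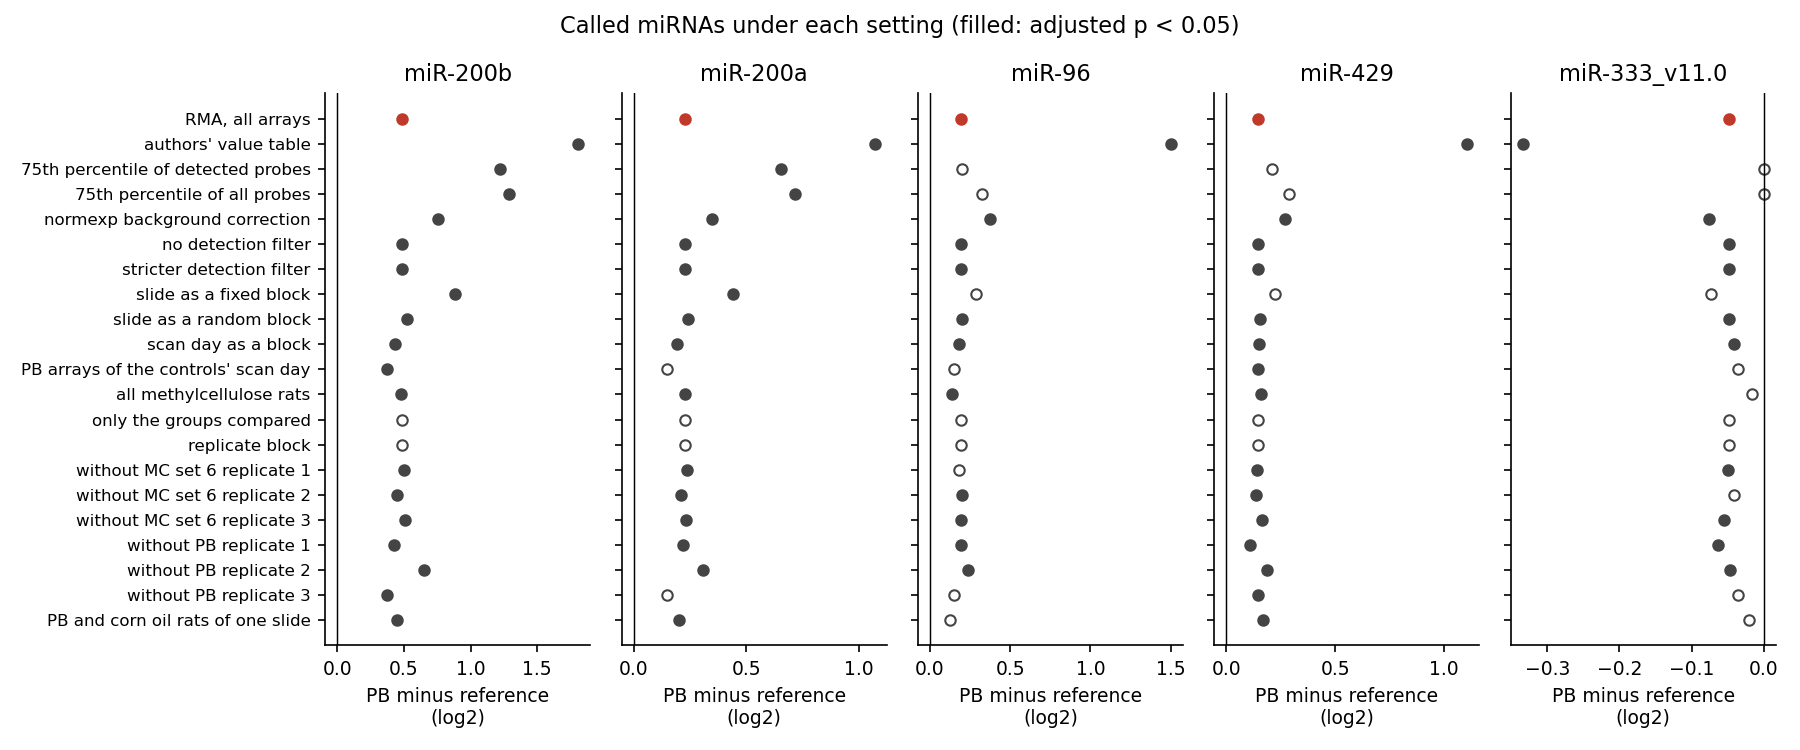
Difference between PB and its reference (log2) of the 5 called miRNAs under the reported model, in red at the top, and under each of 20 other settings. Filled points passed an adjusted p of 0.05 in limma, and each panel has its own axis. miR-200b stays above 0 in every setting and is open in 2 of them, while miR-96 is open in 9.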

How the data were processed

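Arrays of liver RNA, 1 per rat, were hybridised by the authors in 1 colour. Per the file headers, Agilent Feature Extraction 10.7.3.1 measured spot intensity, as mean brightness, local background, a processed signal and a detection mark. The authors also deposited normalized log2 values of 135 miRNAs, made with RMA per the labels, in which the 6 columns used here follow their own arrays. Here, after leaving out outlier spots (2.87%), intensities were quantile-normalized without background correction, averaged per probe, log2-transformed and median-polished per miRNA. All 63 arrays in 21 groups entered limma 3.58.1 (R 4.3.3), with Benjamini-Hochberg adjustment over 162 miRNAs and calls at an adjusted p under 0.05. The model was tested on simulated data with changes of 1 log2 unit and no slide effects, so changes as small as those called here were not covered. A miRNA was well above background where most spots of 1 of its probes were. Text names come from a rule: called miRNAs with no overlap, list members by size of change, and miR-34a. miR-29b, miR-23b, miR-192, miR-107, miR-378 and miR-494 were also named after their values were seen. Members and lists were chosen with earlier results of these data known. Whether rats of a group were littermates is not given in the sources used here. Alternatives were the value table, other scalings, background correction, detection filters, slide, scan day or replicate as a block, other references and leaving out each rat, and the comparison with corn oil rats of 1 slide was chosen after seeing the data. The number of arrays, 3 per group, limits the precision.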

Additional observations from a re-analysis of the deposited data

Results flagged for a closer look

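The PB change and the CPA change of miR-212 differed by -0.140644 log2 units by a test of the difference itself (limma adjusted p = 0.0422). miR-212 stood at 7.62, 7.66 and 7.59 in PB rats, at 7.66, 7.62 and 7.66 in control set 6, at 7.70, 7.75 and 7.70 in CPA rats and at 7.61, 7.60 and 7.61 in corn oil set 4. Control set 6 was higher than MC sets 1 and 5 by 0.13 and 0.11 (limma adjusted p = 0.000237 and 0.00324), and its part in the difference was not tested. Which rats the arrays of MC sets 1 and 5 hold is uncertain. The difference was below 0 in all 24 other settings and passed the test in 7 of them.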

How the results depend on the processing

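miR-200b kept its direction in all 20 other settings and its call in 18. The call held in 16 settings for miR-200a, in 15 for miR-429, in 11 for miR-96 and in 10 for miR-333_v11.0. Log2 fold changes of miR-200b ran from 0.38 to 1.81. The number of miRNAs called in PB was 2 with the processed signal scaled by the 75th percentile of detected or of all probes (miR-200a and miR-200b), 3 with slide as a fixed block (miR-122, miR-200a and miR-200b), 10 against all methylcellulose rats and 0 with only the 2 groups. Leaving out 1 rat in turn it was 4 to 8, and the use of PB arrays of the controls' scan day alone is the fit without PB rat 3. With slide as a fixed block, the difference from control set 6 rests on PB rat 3, the controls and CIDB rats 1 and 2, and PB rats 1 and 2 do not enter it. Reversals were few: miR-122 was 0.24 with slide as a fixed and 0.016 with slide as a random block, miR-200c ran from -0.081 to 0.027 when 1 rat was left out, with the sign turned without control rat 3, and was 0.015 against corn oil rats of slide 1, and miR-494 ran from -0.040 to 1.06, with the sign turned without PB rat 1. miR-494 was called in 6 settings, with 0.61 to 1.06. The cause was not tested. The PB and PBO changes differed for 1 miRNA with slide as a fixed block (miR-122) and for 1 with only the 4 groups (miR-23b), and for 0 when any rat was left out. The PB and CPA changes differed for 5 miRNAs with scaling by detected probes and for 0 with the value table, with scaling by all probes, with normexp background correction, without a detection filter, with slide as a random block, with scan day as a block, with PB arrays of the controls' scan day alone and with only the 4 groups. With slide as a fixed block these changes differed for 1 miRNA, miR-122 at 0.24, while miR-212 was not called, at -0.089. Leaving out 1 rat in turn the count was 0 to 2.

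Replicate numbers occur in both groups, but rats with the same number did not deviate together (r = 0.045, -0.26 and -0.068 across miRNAs), so they were not taken as pairs. With the replicate block 0 miRNAs were called in PB, with 16 at an unadjusted p under 0.05, and 0 differed between PB and CPA. PBO and its control set share no numbers.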

Other observations

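The erythroid miRNAs varied more among the control rats than between groups. miR-451 stood at 9.19, 10.32 and 10.00 in control rats 1, 2 and 3 and at 9.80, 9.72 and 10.06 in PB rats, and miR-144 had its lowest value, 7.96, in the same control rat 1 and its highest, 8.56, in control rat 2. PB rat 3 had the highest value of the 6 rats for miR-142-3p, a leukocyte miRNA, at 8.78 against 8.27 to 8.49 in the others.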
